A study of Mus musculus with 6 samples.

Results

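The genes described here are 45 of the 22394 genes in the deposited table of embryonic mouse kidney RNA, chosen by name as genes of the primary cilium and of intraflagellar transport. They are the numbered Ift and Bbs genes, further subunits of the transport complexes and their motors, and a small set of transition zone, membrane traffic, EvC zone and basal body genes. All 45 were found and all 45 passed the minimum level for testing. The libraries came from whole kidneys at E13.5. The mutants (Foxd1Cre;Ptch1 flox/-, n = 3) carried 1 Ptch1 null allele throughout the body and a floxed one that Cre could remove where Foxd1, a transcription factor gene of renal stromal progenitors, was or had been active. The controls (n = 3) were littermates with 1 floxed and 1 wild-type allele of Ptch1 and, by their genotype label, no Cre. The kidney is a mixture in which only the Foxd1 lineage can lose both alleles, and in bulk RNA fewer cells of a type and less RNA per cell cannot be told apart.

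The primary cilium is a single antenna that most cells of the embryonic kidney carry, and vertebrate Hedgehog signalling runs through it. Ptch1, the Hedgehog receptor, sits at the cilium when no ligand is bound and keeps the transducer Smo out, and the Gli factors are processed or activated depending on traffic through the organelle. Intraflagellar transport carries cargo along the cilium: the IFT-B complex moves outward with the motor kinesin-II, and the IFT-A complex returns with dynein-2 and also brings membrane proteins in. The BBSome, a coat of Bardet-Biedl syndrome proteins, takes membrane receptors back out, and the transition zone at the base acts as a gate. The comparison addresses whether the RNA of this machinery differs in mutants, in which the Ptch1 brake can be removed in the stroma. Every mutant also carried the null allele throughout the body and Cre, so the parts of these cannot be told apart.

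A feature that the choice by name did not use is the sequence upstream of these genes. Regulatory factor X (RFX) proteins, which control many cilium genes, bind a near-palindrome known as the X-box, searched here as GTNNCC and GGNNAC with 2 bases between them, which reads the same on both strands. RefSeq promoters (GRCm38.p6, 250 bases before to 50 after the start) were given for 41 of the 45 genes, and 9 of the 41 (22.0%) held this form, against 313 of 11571 tested genes (2.71%) and 618 of all 32851 promoters of that length (1.88%). A match that lies before the start is shown for 5 genes, chosen to cover IFT-B, IFT-A, the BBSome and the transition zone, with the match in capitals and 15 bases on either side, written 5′ to 3′ on the gene's strand.
Bbs7, chr3:36613482-36613525, minus strand: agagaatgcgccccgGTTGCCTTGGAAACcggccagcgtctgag
Ift57, chr16:49699192-49699235, plus strand: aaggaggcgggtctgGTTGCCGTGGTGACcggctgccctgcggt
Ift22, chr5:136908072-136908115, plus strand: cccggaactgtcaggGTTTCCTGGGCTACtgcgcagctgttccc
Tctn2, chr5:124598672-124598715, plus strand: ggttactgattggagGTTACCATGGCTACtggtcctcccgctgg
Wdr19, chr5:65199647-65199690, plus strand: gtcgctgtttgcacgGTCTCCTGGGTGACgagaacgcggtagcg
A match is a description of these letters and does not show that a protein binds there. Ift22 held a second match closer to its start, which is not shown. The other members with a match were Mks1, where it also lies before the start, and Tctn1, Bbs4 and Bbs1, where it does not. The 9 genes with a match had a median log2 fold change of -0.12 between mutant and control kidneys, and the 32 without had -0.07.

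Depth was 13261588 to 47847925 reads in mutants and 21644399 to 25416896 in controls, and a cilium gene had from 115 to 4413 reads in a library. The targeted gene Ptch1 was at 23.5, 35.8 and 29.8 FPKM (reads per gene length and depth) in mutants 1 to 3, against 8.26, 7.91 and 7.60 FPKM in controls 1 to 3. Ptch1 is itself a target of the pathway, and its count covers all exons, deleted or not, so it does not check the deletion. Gli1, another target gene of the pathway, averaged 28.9 ± 4.35 FPKM in mutants and 17.1 ± 4.33 FPKM in controls (SD, n = 3 each; limma adjusted p = 0.25). All 10 kidney identity genes looked at, among them Pax2, Six2 and Ret, were present, with summed levels of 447 to 507 FPKM in mutants and 452 to 556 FPKM in controls. The sums do not show single genes. Limma called 0 of the 10, with 6 negative and 4 positive fold changes. The authors' deposited table called 2, against 4.61% of its genes with an adjusted p. Wt1 averaged 43.3 FPKM in mutants and 63.6 FPKM in controls (authors' adjusted p = 0.0104). Gata3 averaged 26.35 FPKM in mutants and 15.5 FPKM in controls (authors' adjusted p = 0.00351). Controls 1 and 3 had Xist at 72.9 and 53.3 FPKM and Ddx3y under 0.1 FPKM, a female pattern, while all 3 mutants and control 2 had Ddx3y at 13.9 to 17.8 FPKM. Xist was at 0.103, 0.206 and 6.19 FPKM in mutants 1 to 3 and 0.0471 FPKM in control 2, so mutant 3 held both genes. Control 2 stood apart on the first principal component of all genes (75.8, against -24.6 to 8.49 in the other 5 libraries).

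No gene of the ciliary machinery passed the test for a difference between the groups. The summed level of the 45 genes was 476 ± 9.51 FPKM in mutants and 486 ± 14.7 FPKM in controls (SD, n = 3 each). Limma called 0 of the 45 (lowest adjusted p = 0.441), against 0.307% of all 16933 genes tested, with 0.0886% called lower. At an unadjusted p under 0.05, 1 of 45 was higher and 0 were lower, against 5.26% higher and 4.37% lower (9.63% together) of all genes. The authors' deposited table also called 0 of the 45, against 4.61% of its genes with an adjusted p, and had 3 of the 45 at an unadjusted p under 0.05, against 12.3%. The groups did not overlap for 5 of the 45 (11.1%, against 16.7% of all genes): mutants were higher for 2, against a background of 7.57%, and lower for 3, against 9.09%.

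The intervals of these genes were narrow in the fit without covariates. All 45 of the 95% intervals in limma lay within 2-fold in either direction, against 68.2% of all genes tested, and 36 of 45 (80.0%) lay within 1.5-fold, against 39.1%. The interval bound farthest from no change was -0.96 on the log2 scale, for Kif3b. With the blocks of libraries described below, that bound was -1.15. The intervals measure the spread between libraries and do not allow for such blocks. Nor do they allow for Ddx3y, which was high in all mutants but in control 2 alone among the controls. The median SD within a group was 0.16 on the log2 scale for the 45 genes and 0.25 for all genes tested. All genes tested included genes at lower levels than any of the 45 (lowest mean 0.0127 FPKM, against 2.09 FPKM). Intervals and SD were not compared with those of genes of like level. The part of level in the narrow intervals of the 45 genes was not tested. An adjusted p above the threshold does not show that a level is the same, and differences smaller than these intervals were not detectable with 3 libraries a group.

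**Figure D1:**
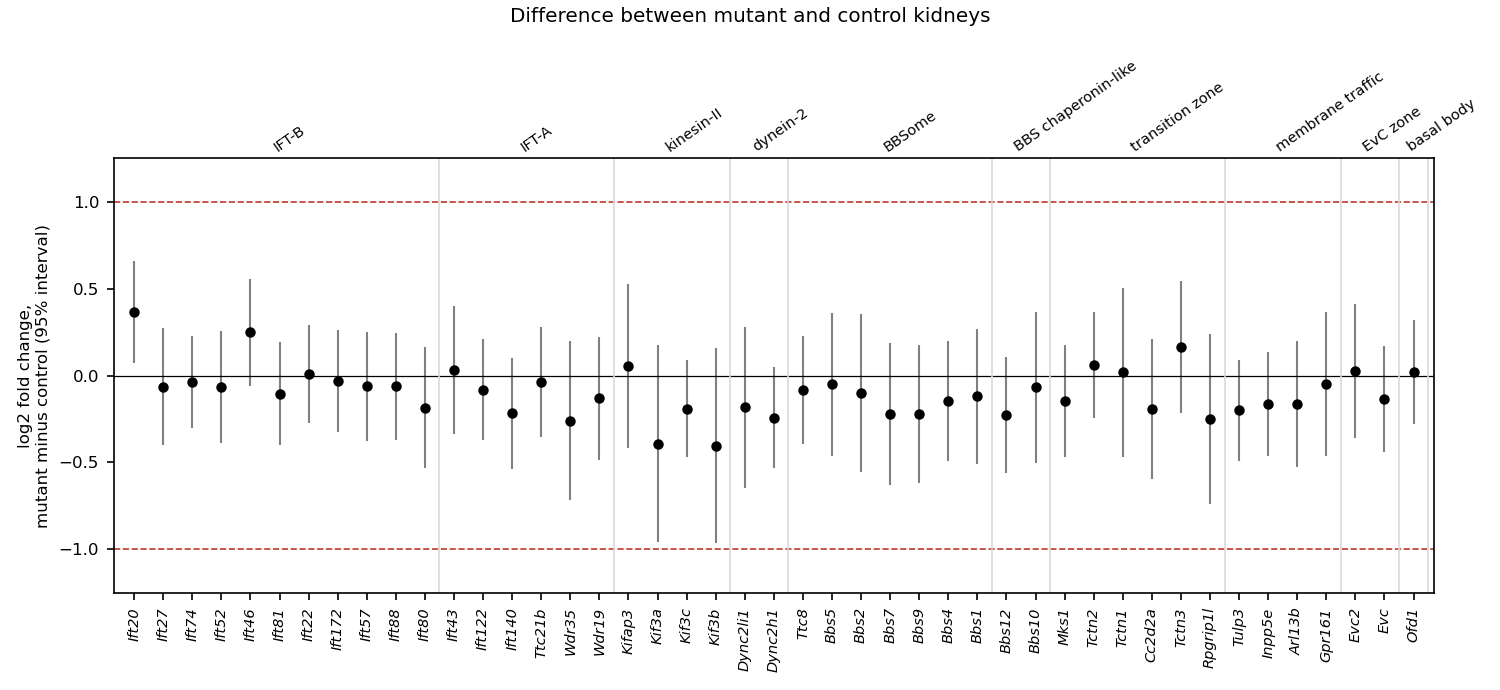
Log2 fold change of each of the 45 cilium genes (vertical axis, mutant minus control, on log2(normalized count + 1)), ordered by role group along the horizontal axis. Points are limma estimates from 3 mutant and 3 control libraries, bars are 95% intervals, and dashed lines mark 2-fold. All 45 intervals lie between the dashed lines and only that of Ift20 leaves out 0.

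IFT-B, the complex that carries cargo outward, held the highest levels and the 2 genes whose mutant values all lay above the controls. Its 11 genes had a median log2 fold change of -0.06, with 8 negative and 3 positive. Ift20, a small subunit that also sits at the Golgi and helps to send membrane cargo to the cilium, was the most abundant of the 45. It was at 63.0, 53.5 and 54.1 FPKM in mutants 1 to 3, against 46.2, 39.2 and 46.9 FPKM in controls 1 to 3. The groups did not overlap, and the difference was 0.37 on the log2 scale (SE 0.13, 95% interval 0.07 to 0.66, limma unadjusted p = 0.0199, adjusted p = 0.441). It lies on chromosome 11 from 78536361 to 78541737 (GRCm38). Ift46, a subunit of the IFT-B core, was at 16.4, 19.9 and 15.6 FPKM in mutants and 13.2, 15.5 and 14.8 FPKM in controls, so the lowest mutant was just above the highest control (difference 0.25 on the log2 scale, limma adjusted p = 0.566, SE 0.13).

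For other core genes the groups overlapped. Ift74, which binds tubulin together with Ift81, was at 29.1, 33.4 and 33.2 FPKM in mutants and 32.6, 30.9 and 34.6 FPKM in controls. Ift88, whose hypomorphic mouse mutation gives polycystic kidneys, was at 4.94, 5.84 and 5.29 FPKM in mutants and 5.76, 5.22 and 5.78 FPKM in controls. Ift74 and Ift88 had log2 fold changes of -0.04 and -0.06. The lowest IFT-B level was that of Ift80, at 4.79 ± 0.487 FPKM in mutants and 5.47 ± 0.87 FPKM in controls (SD, n = 3 each), so mean levels in this complex spanned about an order of magnitude. Subunits that sit in 1 complex thus differed widely in RNA level per length. The annotated exons cover 1525 bases for Ift20 and 12428 for Ift80, and the part of length in this spread was not tested. Of the remaining IFT-B genes, the small GTPase gene Ift27 had a log2 fold change of -0.06, the core genes Ift52 and Ift81 had -0.07 and -0.10, and Ift172, which links the train to its turnaround at the tip, had -0.03, with overlapping groups for all 4.

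**Figure D2:**
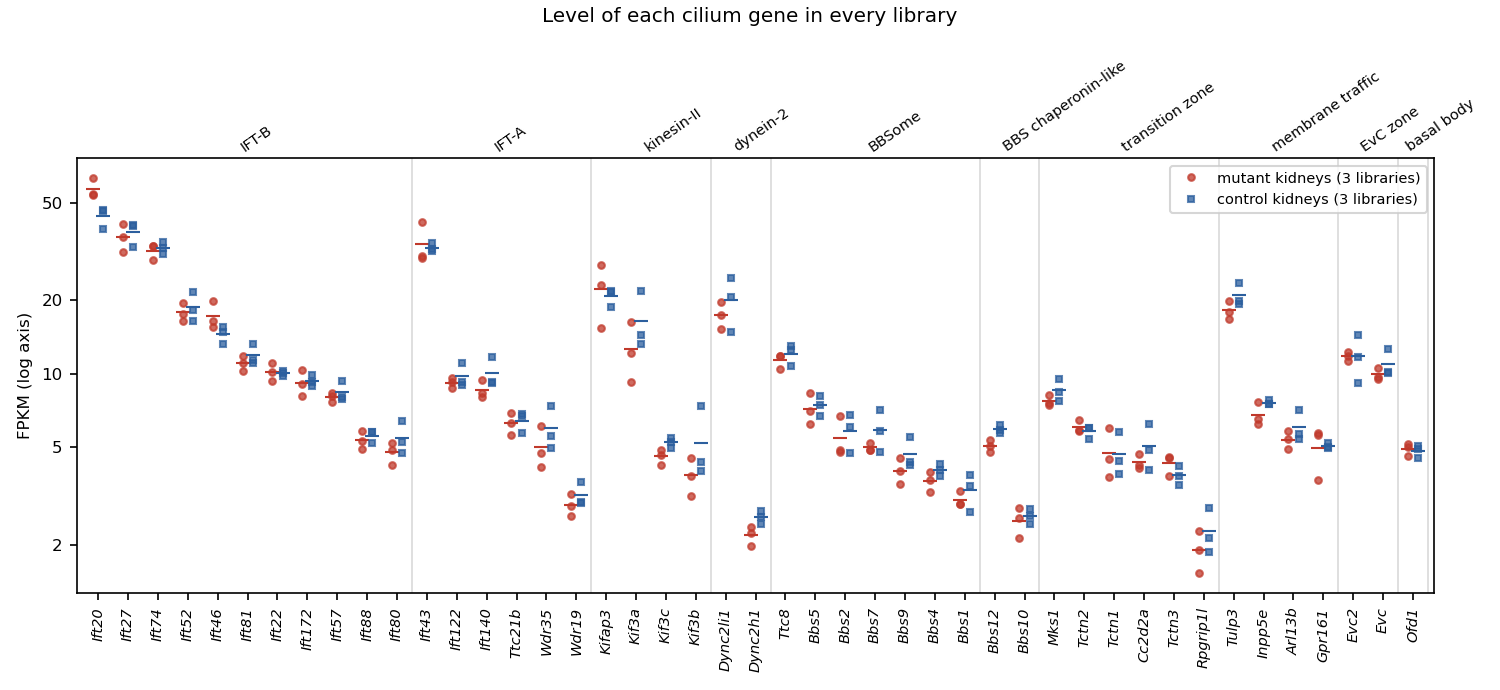
FPKM (vertical axis, log scale) of each cilium gene in all 6 libraries, ordered by role group and then by mean level. Circles are the 3 mutant libraries, squares the 3 control libraries and dashes the group means. Mutant and control points interleave for 40 of 45 genes, and levels run from about 2 FPKM for Rpgrip1l to over 50 FPKM for Ift20 in mutants.

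IFT-A, the complex of the return journey and of membrane protein entry, had 5 of 6 genes with negative fold changes and a median of -0.11. Ift43, a small peripheral subunit, had the highest level, at 33.9 ± 6.90 FPKM in mutants and 32.8 ± 1.39 FPKM in controls (SD, n = 3 each). Mutant 1 alone (41.9 FPKM) stood above the other 5 libraries (29.7 to 34.3 FPKM). Wdr19, the IFT144 subunit, had the lowest level, at 2.91 ± 0.306 FPKM in mutants and 3.19 ± 0.375 FPKM in controls. Wdr35, the IFT121 subunit, was at 4.15, 6.13 and 4.72 FPKM in mutants and 4.99, 7.39 and 5.59 FPKM in controls, with overlapping groups. Its log2 fold change was -0.26 (95% interval -0.72 to 0.20). The core subunit genes Ift140 and Ift122 had log2 fold changes of -0.22 and -0.08, and Ttc21b, the IFT139 subunit gene, had -0.04, all with overlapping groups.

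Among the role groups, the spread between libraries of a group was widest for kinesin-II, the outward motor. Kinesin-II is built from Kif3a, a partner chain Kif3b or Kif3c, and the adaptor Kifap3, and its 4 genes had the largest median within-group SD of the role groups (0.35 on the log2 scale) and a median log2 fold change of -0.29. Kif3a was at 9.23, 12.2 and 16.3 FPKM in mutants 1 to 3, against 21.8, 13.2 and 14.4 FPKM in controls 1 to 3, with overlapping groups. Control 1 was the highest and mutant 1 the lowest library, and the difference was -0.39 (95% interval -0.96 to 0.17, limma adjusted p = 0.608). Kif3b was at 3.18, 4.54 and 3.82 FPKM in mutants, against 4.0, 7.35 and 4.35 FPKM in controls, so here control 2 stood above the rest. Its difference was -0.40 (95% interval -0.96 to 0.16, limma adjusted p = 0.596). Without control 1 the Kif3a difference was -0.17, and without control 2 the Kif3b difference was -0.13. With Ddx3y as a covariate, control 2 is the only control with the mutants' pattern. The Kif3b log2 fold change was then -0.95, and it sets the mutants against control 2 alone.

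Kif3c, a partner chain best known from neurons, was lower in each mutant than in any control, at 4.23, 4.67 and 4.90 FPKM in mutants and 4.99, 5.47 and 5.27 FPKM in controls (log2 fold change -0.19, limma adjusted p = 0.611). Of its exon bases, 35.3% overlap the antisense gene 1110002L01Rik, which was at 4.73 FPKM in mutants and 6.89 FPKM in controls. The sources used here do not state whether the authors' counting used strand, and reads of the pair cannot be told apart. Neuronal, glial and chromaffin markers summed to 14.2 to 42.6 FPKM in mutants and 10.8 to 18.6 FPKM in controls over 15 of 15 genes, none of them listed at 0, and their part in the Kif3c level was not tested. The adaptor Kifap3 was at 15.4, 27.9 and 23.0 FPKM in mutants and 18.7, 21.7 and 21.8 FPKM in controls, with both the lowest and the highest value in a mutant.

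Dynein-2, the return motor, was represented by its heavy chain Dync2h1 and the light intermediate chain Dync2li1, both with negative fold changes. Dync2h1 was at 1.98, 2.37 and 2.24 FPKM in mutants and 2.595, 2.75 and 2.44 FPKM in controls. The groups did not overlap, and the difference was -0.24 (SE 0.13, 95% interval -0.53 to 0.05, limma adjusted p = 0.562). Dync2li1 was at 19.7, 17.3 and 15.2 FPKM in mutants and 14.8, 24.7 and 20.7 FPKM in controls, and control 1 was the lowest and control 2 the highest of the 6 libraries (log2 fold change -0.18, limma adjusted p = 0.739).

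All 7 BBSome genes had negative fold changes, between -0.22 and -0.05, and all 7 had overlapping groups. The highest level was that of Ttc8, the BBS8 subunit, at 11.4 ± 0.79 FPKM in mutants and 12.1 ± 1.17 FPKM in controls, and the lowest that of Bbs1, which contacts the small GTPase that recruits the coat, at 3.06 ± 0.219 FPKM in mutants and 3.35 ± 0.574 FPKM in controls (SD, n = 3 each). Bbs7, the gene whose upstream X-box form is shown above, was at 4.90, 5.23 and 4.87 FPKM in mutants and 4.79, 7.11 and 5.83 FPKM in controls. The BBSome genes Bbs2, Bbs5 and Bbs9 had log2 fold changes of -0.10, -0.05 and -0.22. Of the chaperonin-like genes whose products help to assemble the BBSome, Bbs10 was at 2.51 ± 0.354 FPKM in mutants and 2.62 ± 0.181 FPKM in controls. Bbs12 was at 4.79, 5.38 and 5.07 FPKM in mutants and 6.20, 5.71 and 5.90 FPKM in controls. For Bbs12 the groups did not overlap (log2 fold change -0.22, 95% interval -0.56 to 0.11, limma adjusted p = 0.614).

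At the transition zone, 3 of 6 genes had positive and 3 negative fold changes, with a median of -0.06. Mks1, a Meckel syndrome gene, had the highest level, at 7.72 ± 0.392 FPKM in mutants and 8.56 ± 0.878 FPKM in controls. Rpgrip1l had the lowest level of the 45, at 1.90 ± 0.369 FPKM in mutants and 2.27 ± 0.493 FPKM in controls (SD, n = 3 each). The tectonic gene Tctn3 had the most positive difference of the group, 0.17 (95% interval -0.22 to 0.55), at 3.82, 4.58 and 4.54 FPKM in mutants and 4.19, 3.52 and 3.81 FPKM in controls. Cc2d2a, a scaffold gene of the same zone, had a log2 fold change of -0.19. Tctn1 was at 6.03, 3.78 and 4.50 FPKM in mutants and 5.76, 3.89 and 4.39 FPKM in controls, a spread between libraries that was alike in both groups. It shares 19.0% of its exon bases with Hvcn1 on the opposite strand (9.16 FPKM in mutants and 8.99 FPKM in controls).

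The genes closest to Hedgehog control at the cilium did not differ beyond their spread either. Gpr161, a ciliary receptor that raises cyclic AMP and restrains the pathway, was at 3.67, 5.71 and 5.60 FPKM in mutants and 4.96, 5.02 and 5.19 FPKM in controls, with mutant 1 lowest (log2 fold change -0.05, 95% interval -0.46 to 0.37). Tulp3, the adaptor that brings Gpr161 into the cilium, was at 16.8, 17.9 and 19.8 FPKM in mutants and 19.3, 23.5 and 19.9 FPKM in controls (log2 fold change -0.20, 95% interval -0.49 to 0.09). Arl13b, a small GTPase of the ciliary membrane, was at 5.38 ± 0.46 FPKM in mutants and 6.05 ± 0.917 FPKM in controls. Inpp5e, the lipid phosphatase that Arl13b brings in, was at 6.81 ± 0.78 FPKM in mutants and 7.60 ± 0.166 FPKM in controls (SD, n = 3 each). For Inpp5e, 20.3% of exon bases lie opposite exons of Pmpca, a more abundant gene at 36.6 FPKM in mutants and 42.4 FPKM in controls.

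Evc and Evc2, whose proteins form a complex that passes the Smo signal on at the base of the cilium, lie head to head on chromosome 5 with 1605 bases between their annotated starts. Evc was at 9.68, 9.54 and 10.6 FPKM in mutants and 12.7, 10.03 and 10.2 FPKM in controls. Evc2 was at 11.3, 11.9 and 12.3 FPKM in mutants and 14.4, 9.16 and 11.8 FPKM in controls. Control 1 was the highest library for both genes, and the groups overlapped for both, with log2 fold changes of -0.13 and 0.03. Ofd1, a centriolar satellite and basal body gene on the X chromosome, was at 4.61, 5.15 and 5.001 FPKM in mutants and 4.54, 4.94 and 5.05 FPKM in controls. Its levels in controls 1 and 3, which had Xist without Ddx3y, were the lowest and the second highest of the 6.

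A shift shared by the module was small and pointed down. Of the 45 genes, 35 had a negative fold change (77.8%, against 50.9% of all genes tested). The median log2 fold change was -0.10, against -0.01 over all genes. Over the 8036 tested genes in the range of level of the 45 it was -0.04. Without control 2 the median was -0.06 with 34 negative, and without mutant 1 it was -0.10 with 33 negative. Control 2 was the highest library for 22 of the 45 genes (48.9%, against 30.6% of all genes tested), and mutant 1 was the lowest for 24 (53.3%, against 25.4%). The mean difference of the 45 genes from the control mean was -0.17, -0.03 and -0.09 in mutants 1 to 3, against -0.04, 0.08 and -0.04 in controls 1 to 3. Mutant 2 was thus level with controls 1 and 3, and the groups overlapped on this measure. In mutant 1 the lowest role groups were kinesin-II (-0.55) and the membrane traffic genes (-0.34), while its IFT-B genes were at -0.02.

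Gene length moved with these values. The length behind each FPKM can be read from the ratio of normalized counts to FPKM, which was 27.8 for Ift20 and 340 for Dync2h1. Over the 8036 tested genes in the range of level of the 45, median log2 fold changes in 5 equal bins of that length were 0.06, -0.02, -0.07, -0.09 and -0.10 from shortest to longest. For the 5, 9, 9, 9 and 13 cilium genes in the same bins the medians were -0.05, -0.08, -0.15, -0.06 and -0.19. Across genes, Spearman's rho between length and the deviation of mutant 1 from the mean of all libraries was -0.45 over the 8036 genes and -0.54 over the 45, with no test, since genes of 1 library are not independent. It was -0.06 to 0.20 over the 8036 genes in the other 5 libraries. The part of length in the downward shift of the 45 genes was not tested.

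**Figure D3:**
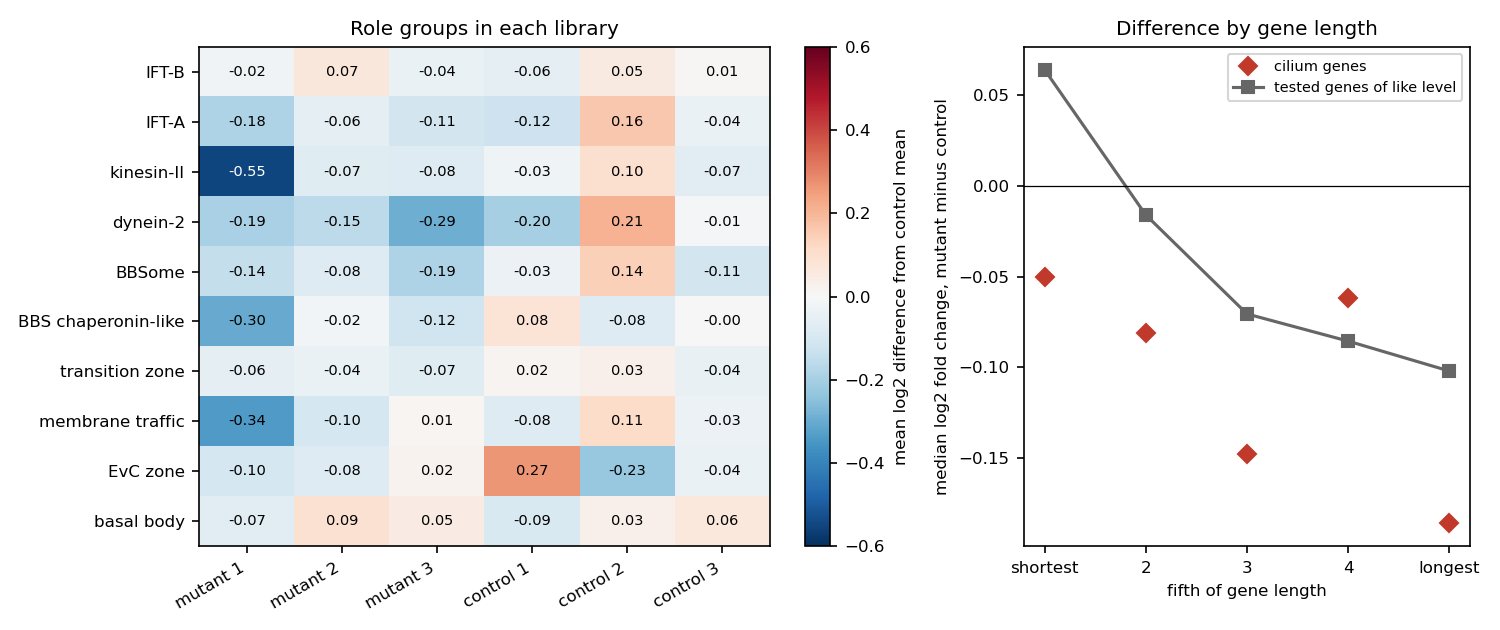
Left, mean log2 difference from the control mean for each role group (rows) in each library (columns), with the value in each cell. Right, median log2 fold change, mutant minus control, by bin of gene length for the cilium genes (diamonds) and for the 8036 tested genes of like level (squares): mutant 1 holds the lowest cell (kinesin-II, -0.55), and the squares fall with length.

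The authors' deposited fold changes were not plain differences of 3 mutants and 3 controls. A regression of the deposited log2 fold change on the 6 log2 levels, over 7561 genes with at least 500 normalized counts in every library, gave weights of 0.28, 0.29 and 0.43 to mutants 1 to 3, and of 0.00, -0.57 and -0.43 to controls 1 to 3, with a residual SD of 0.0082. Those weights match a fit with blocks of control 2 with mutants 1 and 2, of control 3 with mutant 3, and of control 1 alone, whose exact weights are 0.29, 0.29 and 0.43 for mutants and 0.00, -0.57 and -0.43 for controls. In such a fit control 1 has no part in the fold change. No label names such blocks, and what they stand for is unknown here. Plain differences of the group means departed from the deposited values with an SD of 0.13.

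With these blocks added to limma, which was chosen after seeing the data, 0 of the 45 were called, against 1.27% of all genes, and 38 of 45 fold changes were negative, against 50.6%, with a median of -0.13. The log2 fold change of 13 of the 45 moved by more than 0.1 between the fits. The Kif3a difference became -0.10 (95% interval -0.53 to 0.32) and that of Kif3b became -0.62 (95% interval -1.15 to -0.10, unadjusted p = 0.0247, adjusted p = 0.207). The authors' deposited table gave -0.10 for Kif3a and -0.62 for Kif3b, with adjusted p of 0.878 and 0.168. Dync2li1 moved to -0.43 (adjusted p = 0.231), and Ift20 to 0.41 (adjusted p = 0.226). In this fit 44 of 45 intervals lay within 2-fold, Kif3b being the exception. Within the sets of libraries, the median difference over the 45 genes was -0.22 between mutants 1 and 2 and control 2, and -0.04 between mutant 3 and control 3. For Kif3b alone the difference was -0.95 in the set with control 2 and -0.19 in the set with control 3.

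**Figure D4:**
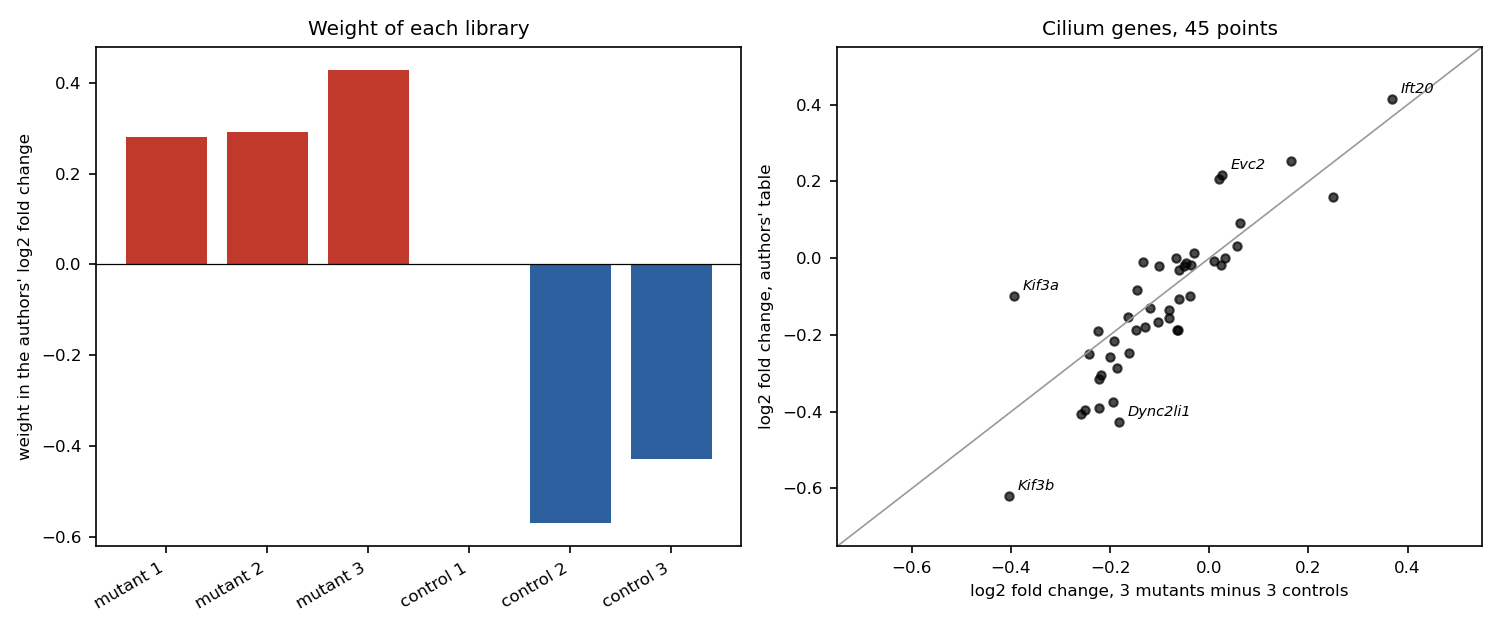
Left, weight of each library in the authors' deposited log2 fold change, from a regression over 7561 genes; control 1 has a weight of 0.00. Right, each of the 45 cilium genes by the plain log2 fold change, 3 mutants minus 3 controls (horizontal axis), and by the deposited log2 fold change (vertical axis), with the line of equal values; Kif3a and Kif3b lie on opposite sides of that line.

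No cilium gene outside the 45 was called either. Of 107 measured genes in 5 further lists, 99 were tested and 0 were called in limma, against 0.307% of all genes. At an unadjusted p under 0.05, 4 of the 99 were higher and 4 lower, against 5.26% higher and 4.37% lower of all genes. Their median log2 fold change was -0.06, their range was -1.62 to 1.07, and 84 of 99 intervals lay within 2-fold. The authors' deposited table called 0 of them, against 4.61%. Among 18 transport and BBSome genes under other names, the IFT-B gene Ttc30a1 was at 3.28 ± 0.278 FPKM in mutants and 4.28 ± 0.0398 FPKM in controls (limma adjusted p = 0.478), and the ciliary kinesin gene Kif17 at 0.458 ± 0.0451 FPKM in mutants and 0.336 ± 0.0613 FPKM in controls (adjusted p = 0.622). Ttc26, another IFT-B gene, was at 4.24 ± 0.127 FPKM in mutants and 4.91 ± 0.709 FPKM in controls (SD, n = 3 each; limma adjusted p = 0.633). Among 35 transition zone, inversin and basal body genes, B9d1, of the Meckel syndrome complex, was at 42.3 ± 4.73 FPKM in mutants and 30.6 ± 3.98 FPKM in controls (limma adjusted p = 0.385). The long scaffold gene Cep290 was at 2.37 ± 0.138 FPKM in mutants and 3.10 ± 0.402 FPKM in controls (adjusted p = 0.478), and the kinase gene Nek8 at 11.1 ± 0.843 FPKM in mutants and 8.79 ± 0.744 FPKM in controls (adjusted p = 0.487). B9d1 and Nek8 had positive and Cep290 negative fold changes.

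Among 23 genes of ciliary cargo, small GTPases and polycystins, the lowest p was that of Sstr3, a somatostatin receptor of the ciliary membrane. It was at 0.186, 0.171 and 0.373 FPKM in mutants and 0.840, 0.579 and 0.777 FPKM in controls, so the groups did not overlap (log2 fold change -1.62, SE 0.37, limma unadjusted p = 0.00219, adjusted p = 0.175). Efcab7, which anchors the EvC complex, was at 6.15 ± 1.247 FPKM in mutants and 8.02 ± 0.49 FPKM in controls (adjusted p = 0.537), and Tub was at 1.15 ± 0.306 FPKM in mutants and 0.816 ± 0.139 FPKM in controls (adjusted p = 0.579). All 12 tested transcription factor genes tied to ciliogenesis had negative fold changes (median -0.25) and none was called or had an unadjusted p under 0.05. Of the RFX genes, Rfx7 averaged 5.90 ± 0.794 FPKM in mutants and 7.53 ± 1.37 FPKM in controls, and Rfx5 averaged 5.72 ± 0.74 FPKM in mutants and 6.92 ± 0.534 FPKM in controls (SD, n = 3 each). Rfx1 averaged 9.32 ± 0.436 FPKM in mutants and 10.3 ± 0.964 FPKM in controls. Of the 11 tested motile cilium genes, 9 had positive fold changes at low levels. Rsph9, a radial spoke gene, was at 6.26 ± 0.511 FPKM in mutants and 4.21 ± 1.05 FPKM in controls, and the outer dynein arm gene Dnaic1 was at 0.326 ± 0.105 FPKM in mutants and 0.147 ± 0.0527 FPKM in controls (adjusted p = 0.502 for Rsph9 and 0.50 for Dnaic1). Cfap53 was at 0.52 ± 0.204 FPKM in mutants and 0.293 ± 0.0683 FPKM in controls (limma adjusted p = 0.590).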

How the data were processed

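Libraries of 6 kidney samples were used, 3 mutant and 3 control. Per the labels' protocols, an mRNA kit was used. The authors used Trim Galore, STAR 2.6.0c, HTSeq 0.6.1p2, DESeq2 and build mm10, as named without role or order in the submitters' processing notes. The 6 library columns hold FPKM made by the authors, a unit read from the values since no header names it. Per the file headers, the authors also deposited a mean normalized signal, a log2 fold change (and standard error), a test score, and a raw and adjusted p-value.

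FPKM were turned into normalized counts by each gene's mean normalized signal over its mean FPKM. These were whole multiples of 1 read per library for 100% of values (within 0.001 of a read). The values log2(normalized count + 1), a scale that understates the change of low genes, were fitted by limma-trend without covariates (limma 3.58.1, R 4.3.3) for the 16933 genes with at least 10 normalized counts in 3 or more libraries. Calls are Benjamini-Hochberg adjusted p under 0.05 over all of them, two-sided. The code of the fit was run on simulated counts with the same spread setting for every gene and no blocks or sex difference. That run concerns the code, and no result here rests on it. No count model was fitted. P-values measure the spread between these samples; the mutants are described as 3 mice, and the number of control animals is not stated.

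Members and lists were chosen with earlier results of these data known. Full values were to be given for members called in limma or in the authors' deposited table or with an unadjusted p under 0.05, of which Ift20 was the only one, and group means for the highest and lowest member of each role. Of each other list, the 3 genes with the smallest limma p are named. The other members given in every library were chosen after their values were seen. Older symbols were matched through RefSeq synonyms. Positions are from GENCODE M21 (GRCm38, the assembly of mm10), which held 99.8% of the identifiers. Alternatives are given in the closing section.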

Additional observations from a re-analysis of the deposited data

How the results depend on the processing

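The median log2 fold change of the 45 genes was negative in all 18 alternatives (-0.17 to -0.05), and Ift20, Ift46, Dync2h1, Kif3a and Kif3b kept their direction in each (scaling, pseudocount, filter, FPKM, weights, trend, blocks and libraries left out). Limma called 0 cilium genes in 17 of the 18. The exception was a covariate for Ddx3y, which leaves control 2 as the only control with the mutants' pattern: 1 was called (Kif3b, log2 fold change -0.95, adjusted p = 0.0388), 8 were lower at an unadjusted p under 0.05 against 0 in the plain fit, and 2 genes of the other cilium lists were called, while 1082 genes were called in all. With the blocks read from the authors' fold changes 1 was higher and 2 were lower at an unadjusted p under 0.05, against 10.7% higher and 8.02% lower of all genes. Leaving out 1 library gave 0 to 1 higher (0 without control 2 or mutant 1) and 0 to 1 lower. For the Ddx3y fit, the 1082 calls were among 16933 genes tested. The share called was lower than this among the 45 and among the 99 other cilium genes tested. Its share of all genes lower at an unadjusted p under 0.05 is not given, so the 8 have no background. That fit sets the mutants against control 2 alone, and its counts are not read as a cilium result.

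The replicate numbers of the labels were not treated as pairs, since they are not said to mark litters. Deviations of same-numbered libraries correlated at 0.001, -0.098 and 0.309. Mutant 2 with control 2, and mutant 3 with control 3, also share a block read from the authors' fold changes. These values therefore cannot decide whether the numbers mark pairs. The fit with the replicate block called 0 of the 45, with 1 lower at an unadjusted p under 0.05, and 17 genes in all. Each cilium gene had at least 115 reads in each library, and 3 libraries a group limit the differences that can be seen.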

Other observations

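The Gli motif, searched as GACCACCCA or TGGGTGGTC, was in the promoter of 0 of the 41 cilium genes with a RefSeq promoter, against 33 of 11571 tested genes (0.285%), which says only that these letters are not in that window.

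Markers of other cell types were summed in each library, and their part in the levels of the cilium genes was not tested. Limma called 4 of 8 endothelial markers higher and 6 of 7 tested skeletal muscle markers lower, against 0.219% higher and 0.0886% lower of all genes. It called 0 of 6 macrophage and 0 of 3 tested multiciliated cell markers. All 6 macrophage markers had positive fold changes, 4 of them at a limma unadjusted p under 0.05, against 5.26% of all genes. Endothelial markers summed to 205 to 260 FPKM in mutants and 106 to 120 FPKM in controls (8 of 8 measured). Skeletal muscle markers summed to 7.58 to 9.99 FPKM in mutants and 30.5 to 52.0 FPKM in controls (8 of 8 measured, with Ckm listed at 0 in at least 1 library). Macrophage markers summed to 13.2 to 24.6 FPKM in mutants and 9.18 to 13.1 FPKM in controls. Multiciliated cell markers were low throughout, at 1.37 to 2.10 FPKM in mutants and 1.37 to 1.72 FPKM in controls over the 4 of 6 that were measured.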
